A study of Mus musculus with 4 samples.

Results

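Transcript levels were compared between macrophages labelled as lacking Mettl3 and control macrophages, from the input libraries of an m6A sequencing experiment. An input library holds the fragmented poly(A) RNA before pulldown with the m6A antibody, so it measures how much of each transcript was present. The comparison runs over every gene with an FPKM (fragments counted on a transcript, scaled by its length and by the size of the library) in both input libraries. These are 7307 of the 7400 genes in the authors' deposited table, from 2 of the 4 libraries of the series. Of them, 6079 had a mean FPKM of at least 1 and were set against a size threshold. The table lists a gene only through a differential m6A peak, so genes without one were not analysed here. Mettl3 has no row, and its own level could not be checked.

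Both libraries came from bone-marrow-derived macrophages of C57BL/6 mice, grown with M-CSF (macrophage colony-stimulating factor) for 7 days and then kept for 24 h with MC38, a cell line from a mouse colon carcinoma. The control library, WT, carries loxP-flanked Mettl3 alleles (Mettl3fl/fl) and no Cre. The cKO library carries the same alleles together with LysM-cre, a Cre recombinase placed in the lysozyme M gene Lyz2 and active in myeloid cells. The labels do not say whether the carcinoma cells were removed before RNA extraction, or how many animals gave each culture. With 1 library per genotype no spread between cultures is known, so no p-value was computed and each difference is between 2 libraries. Total read counts were not analysed here, and the depth behind each value is unknown.

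METTL3 is the catalytic subunit of the methyltransferase that places N6-methyladenosine (m6A) on nascent messenger RNA. Reader proteins of the YTH family bind the mark and, in many cells, speed the decay of the marked transcript. In macrophages, m6A is known to act on transcripts of cytokine signalling and of innate immune activation, the programme by which these cells make chemokines, cytokines and interferon-induced defence proteins.

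Most transcripts were at nearly the same level in both genotypes. Among those at least 1.5-fold lower in the cKO input were all 7 tested guanylate-binding proteins, the chemokines Cxcl1, Cxcl2 and Cxcl3, and the complement genes C1qa and C1qc. Among those at least 1.5-fold higher were Spp1, which encodes osteopontin, 8 of 23 tested matrix genes and 5 of 32 chaperones and folding enzymes of the endoplasmic reticulum. Smaller differences of mostly 1 sign were found in amino acid supply genes (26 of 31 below 0, 2 of them past 1.5-fold) and ribosomal protein genes (68 of 70 above 0, 0 past 1.5-fold). Each difference given is the cKO value minus the WT value of log2(FPKM + 1), a scale that understates the change of low genes. Their median over the 6079 genes was -0.02, the quartiles were -0.15 and 0.12, and 96.9% of genes lay within 1.5-fold. Below 0 lay 54.2% of these genes, and above 0 lay 45.8%. At least 1.5-fold higher in the cKO were 89 genes (1.46%), and at least 1.5-fold lower were 101 genes (1.66%). At least 2-fold higher were 25 genes (0.411%), and at least 2-fold lower were 26 genes (0.428%). These shares are the background against which each gene group is read. List members within 1.5-fold, named to show the spread of a list, were mostly chosen after their values were seen. Paired values are FPKM in the WT first and in the cKO second. Just past the 1.5-fold limit lay Ptges3l (1.72 and 0.811) and Nlrp3 (8.13 and 5.08), and just short of it lay Lipo3 (3.60 and 2.08) and Gm16754 (2.05 and 3.57).

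**Figure D1:**
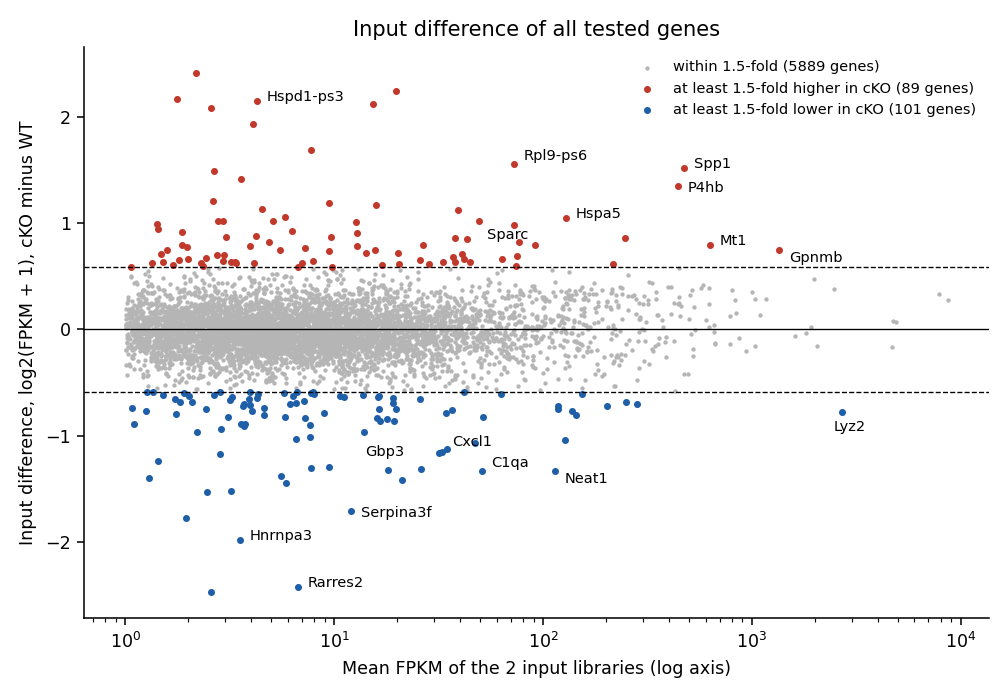
Input difference of the 6079 tested genes (y axis, log2(FPKM + 1), cKO minus WT) against their mean FPKM in the 2 input libraries (x axis, log scale). Each point is a gene, dashed lines mark 1.5-fold, red points are the 89 genes at least 1.5-fold higher in the cKO and blue points the 101 genes at least 1.5-fold lower in the cKO.

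The macrophage label was set beside marker genes, which can have a value here only through a differential m6A peak. In these bulk libraries, fewer cells of a type and less RNA per cell cannot be told apart. Of 16 macrophage markers 12 had a value, all above an FPKM of 1, with a summed level of 6447 FPKM in the WT and 4838 in the cKO. Cd68, a lysosomal membrane protein of macrophages, was at 695 and 634 FPKM, and Fcer1g, a shared signalling chain of Fc receptors, at 340 and 374. Lyz2, the lysozyme gene that holds the Cre, was at 3393 and 1980 FPKM, a difference of -0.78. Lyz2 alone makes up most of the gap between the summed levels. Only the cKO carries the Cre at Lyz2, so this difference cannot be told apart from an effect of Mettl3 loss. Markers of neutrophils (5 of 14 with a value) summed to 248.7 and 194.0 FPKM. Most of that sum was Lcn2, at 187 and 122, a gene also listed below among inflammatory effectors. The other neutrophil markers went both ways: Mmp8 (22.3 and 34.8) and S100a8 (12.3 and 13.7) were higher, Mmp9 (17.9 and 15.3) and Retnlg (9.38 and 8.27) lower. Markers of dendritic cells (2 of 11) summed to 10.6 and 13.1, and those of epithelium and MC38 cells (3 of 17) to 7.78 and 11.2. Osteoclast markers (5 of 9), several of which macrophages share, summed to 1115 and 911 FPKM. Lymphoid markers (2 of 16 with a value) summed to 1.10 and 0.642 FPKM, and 0 of 12 erythroid and mast cell markers had a value. A marker without a value may still be expressed, so these counts do not show that a cell type was absent.

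The immunity GTPases were the list with the lowest median. These large and small GTPases are induced by interferon gamma, and they coat and break open the vacuoles in which microbes live. Of 21 genes in the list 10 were tested, and 10 of the 10 were at least 1.5-fold lower in the cKO, against 1.66% of all tested genes, with a median of -0.88. The list was written with earlier results of these data known, so its count describes these genes and is no independent sign of direction.

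Among the guanylate-binding proteins, Gbp3 (chromosome 3, 142560026 to 142573209, plus strand, mm10) had 26.4 FPKM in the WT and 9.92 in the cKO. This is 2.66-fold lower, and the authors' deposited table gives it a p of 0.036 and a q of 1. The authors' values also rest on 1 input library per genotype and do not measure spread between cultures. Gbp7 was at 25.4 and 13.5 FPKM, and Gbp6 at 25.1 and 14.5. All 3 stood at about the same level in the WT, while in the cKO Gbp3 was the lowest of them. Gbp5, which promotes inflammasome assembly, was at 10.6 and 4.73 FPKM. The low-level members Gbp9, Gbp4 and Gbp8 were at 4.98, 1.85 and 1.72 FPKM in the WT and at 2.21, 0.675 and 0.464 in the cKO. The immunity-related GTPases Irgm1, a regulator of the family, and Irgm2 were at 18.6 and 13.8 FPKM in the WT and at 9.04 and 8.53 in the cKO. The very large GTPase Gvin1 was at 20.04 and 12.6 FPKM. Several members, such as Gbp4, Gbp8 and Gbp9, are close copies of each other, and how shared reads were assigned is not given in the sources used here.

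Letters of the interferon-stimulated response element, a site bound by interferon regulatory factors, were looked for in the promoters of these genes. The promoters are RefSeq's, on GRCm38.p6, and run from 250 bases before to 50 bases after each start. The motif was spelled GAAANNGAAA and searched on both strands. The promoter table held 5 of the 10 tested GTPases, and 5 of the 5 held the motif, against 3.99% of the 27025 genes in the table. With promoters for 5 of 10 GTPases and for 62 of the 101 genes at least 1.5-fold lower, a comparison of motif shares between such sets is void. The sites are shown because the same spelling stands within 165 bases of the start in each of the 5 genes. Capitals mark the motif, and the complement TTTCNNTTTC is the same motif read on the other strand.
Gbp3, chr3:142559991-142560016, plus strand: ggacacagTTTCAGTTTCtatttccc
Gbp5, chr3:142496761-142496786, plus strand: ttgtgtagTTTCAATTTCagtttaga
Gbp7, chr3:142530275-142530300, plus strand: gtgtgcagTTTCAGTTTCagttctcc
Irgm1, chr11:48871427-48871452, minus strand: aagaaataGAAACCGAAActgattct
Irgm2, chr11:58214905-58214930, plus strand: caggaactGAAACTGAAAgctgttcg
Gbp3, Gbp5 and Gbp7 lie beside each other on chromosome 3 and carry the motif on the strand opposite to the gene, while in Irgm1 and Irgm2 it is on the same strand. A match is a description of these letters and not a measured site.

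Other interferon-induced genes lay mostly below 0 by smaller amounts. Of 26 tested interferon-stimulated antiviral genes, 23 lay below 0, against 54.2% of all tested genes, and 3 above. The median was -0.26, and 2 were at least 1.5-fold lower. Those were Zbp1, a sensor of Z-form nucleic acid (13.2 and 8.17 FPKM), and Parp14, an ADP-ribosyltransferase (16.8 and 10.6). Isg15, a ubiquitin-like modifier, was at 95.0 and 68.1 FPKM, while Samhd1, which breaks down nucleotides that viruses need (20.6 and 20.7), and Oas3, an oligoadenylate synthetase (6.25 and 6.70), were level or slightly higher. Among the interferon regulatory factors, the transcription factors that drive these genes, Irf1 was 2.23-fold lower, with 47.7 FPKM in the WT and 21.4 in the cKO. Irf8 was at 28.0 and 20.4 FPKM, Irf3 at 6.84 and 6.72, and Irf7 was higher in the cKO, at 42.7 and 52.9. The interferon gamma receptor genes Ifngr1 (16.2 and 15.2) and Ifngr2 (45.2 and 50.1) were close in both libraries, and so was the kinase gene Jak1 (39.9 and 37.6).

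Antigen presentation genes of the interferon type followed with smaller differences. Of 17 class I presentation genes 15 lay below 0 (54.2% of all tested genes), none past 1.5-fold, with a median of -0.19. The immunoproteasome genes Psmb8 (58.5 and 42.4 FPKM), Psmb9 (15.9 and 12.02) and the activator gene Psme2 (120.4 and 84.6) had a median of -0.45. The other proteasome subunits had a median of -0.13, with 22 of 26 below 0. The class I heavy chains H2-K1 and H2-D1 and their partner B2m had a median of -0.16. Of the 2 class I genes above 0, Calr and Pdia3, both encode chaperones of the endoplasmic reticulum and also belong to the folding genes described below. Cd74, which encodes the invariant chain that guards the class II groove, was the single class II gene past 1.5-fold, at 184 and 105 FPKM, while H2-Ab1 was at 68.7 and 66.0.

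CXC chemokines, which mostly attract neutrophils, differed in both directions. Of 6 tested members 3 were at least 1.5-fold lower and 1 at least 1.5-fold higher (1.66% and 1.46% of all tested genes), with a median of -0.64. The neighbouring genes Cxcl1, Cxcl2 and Cxcl3 were at 45.8, 66.1 and 64.3 FPKM in the WT and at 19.98, 36.9 and 30.0 in the cKO. Cxcl14, a chemokine made by many epithelia and fibroblasts, ran the other way, with 9.35 and 22.3 FPKM. It lies on chromosome 13 (56288643 to 56296551, minus strand, mm10), away from Cxcl1, Cxcl2 and Cxcl3 on chromosome 5. Pf4, a platelet and megakaryocyte chemokine also made by macrophages, was at 156 and 113 FPKM.

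The 3 clustered chemokine promoters are shown because they hold an identical run of 10 bases, GGGAATTTCC, which is a spelling of the NF-kB site. Capitals mark that run.
Cxcl1, chr5:90891166-90891191, plus strand: tgtactccGGGAATTTCCctggcccg
Cxcl2, chr5:90903794-90903819, plus strand: tgagctcaGGGAATTTCCctggtccc
Cxcl3, chr5:90786020-90786045, plus strand: gctgcgggGGGAATTTCCccagcccg
This run, or its complement, stands in 29 of the 32851 promoters in the table (0.0883%). Of the tested genes 8 have it: Cxcl1, Cxcl2, Cxcl3 and Gbp5, all at least 1.5-fold lower in the cKO, and Nfkbia, Map3k7, Trio and Zfp84, which lay within 1.5-fold at -0.27, -0.04, -0.02 and -0.18. The run was picked from the Cxcl1 promoter after the values were seen, and the 3 chemokine genes are related copies, so it is a description only. The looser spelling GGGNNNNNCC was present in 73.3% of the tested genes with a promoter.

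Several other inflammatory products were lower too. Il6 was at 9.15 FPKM in the WT and 3.96 in the cKO, Il1a at 513 and 344, and Il1b at 258 and 178. Of 8 tested cytokine genes, 7 lay below 0 (54.2% of all tested genes), with a median of -0.12. Only 1, Il6, was at least 1.5-fold lower (1.66% of all tested genes). Il1rn, the antagonist of interleukin-1, was at 35.2 FPKM in both. The median of 16 inflammatory effectors was -0.42. Of them, 14 lay below 0 and 4 were at least 1.5-fold lower (54.2% and 1.66% of all tested genes). These 4 were Nos2, the inducible nitric oxide synthase (351 and 215), Lcn2, an iron-scavenging protein (187 and 122), Ptges, the inducible prostaglandin E synthase (75.8 and 49.6), and Nlrp3, an inflammasome sensor. Saa3, an acute-phase protein that stood at 1843 FPKM in the WT, was at 1802 in the cKO, and the C-type lectin gene Clec4d was at 113 in both. Among CC chemokines, Ccl5 was at 253 and 152 FPKM, Ccl4 at 116 and 77.7, and Ccl3, the most abundant of the 5 tested, at 886 and 840.

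**Figure D2:**
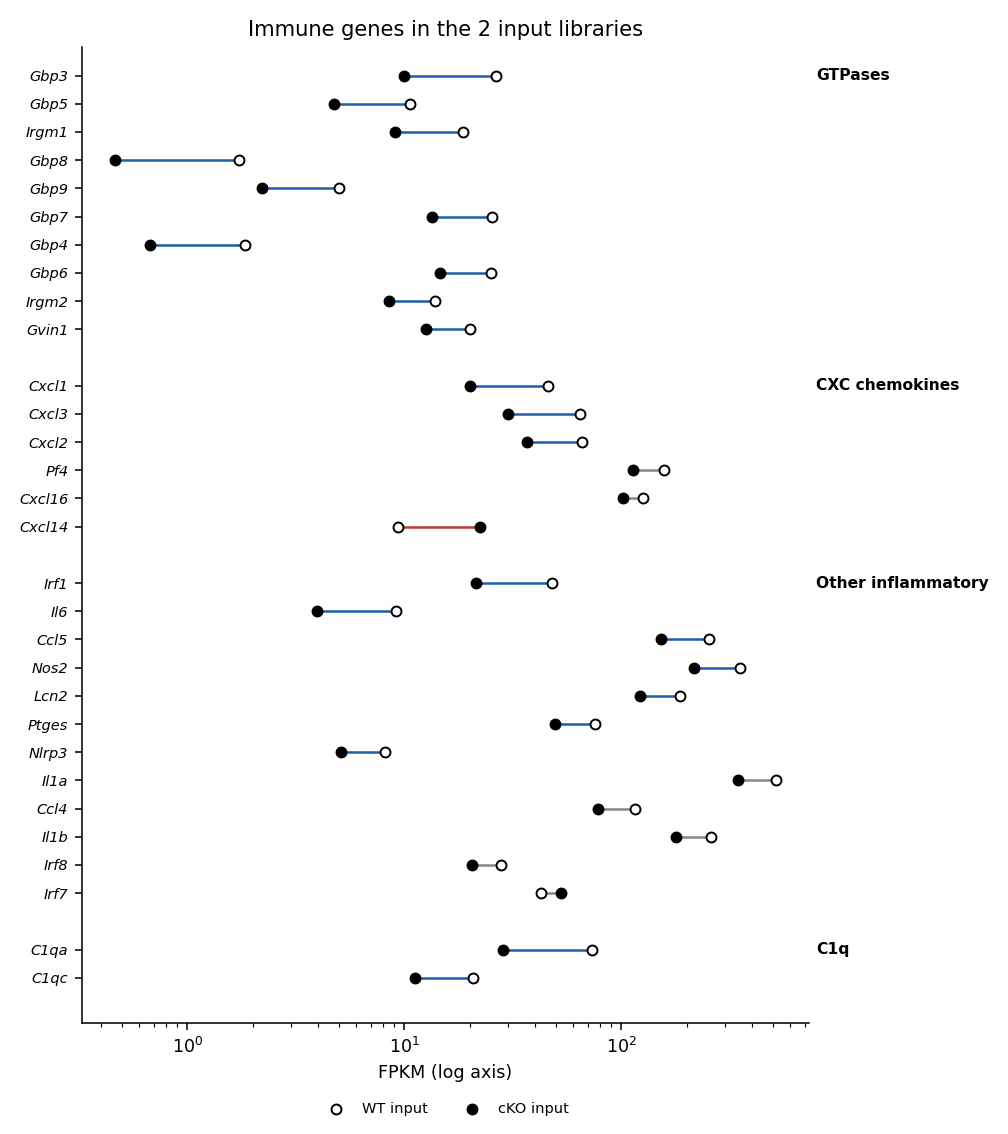
FPKM (x axis, log scale) of immune genes in the WT input (open circles) and the cKO input (filled circles), 1 library each. Blue lines join values at least 1.5-fold lower in the cKO, red lines values at least 1.5-fold higher and grey lines smaller differences, and the 10 GTPases are all blue while Cxcl14 alone is red.

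Receptors and inhibitors upstream of these products had small differences, with list medians below 0. Of 17 Toll-like receptors and adaptors, 13 lay below 0 and 1 was at least 1.5-fold lower (54.2% and 1.66% of all tested genes). That 1 was Tlr2, the receptor for bacterial lipoproteins (50.5 and 33.1 FPKM). Tlr8 was at 3.93 and 6.10 FPKM, the largest difference above 0 in the list at 0.53. Of 16 NF-kB subunits and inhibitors none was past 1.5-fold, and their median was -0.14, against -0.02 over all tested genes. The precursor subunit gene Nfkb2 was at 16.8 and 12.5 FPKM, the inhibitor gene Nfkbia at 114 and 94.4, and Tnfaip3, a deubiquitinase that restrains NF-kB, at 18.8 and 17.2. The 30 JAK-STAT genes had a median of -0.08 with none past 1.5-fold.

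The serine protease inhibitors Serpina3f and Serpina3g, 2 neighbouring and closely related genes on chromosome 12, were among the lowest genes. Serpina3f (104214544 to 104221129, plus strand, mm10) was at 19.01 and 5.10 FPKM, and Serpina3g (104236245 to 104241939) at 31.1 and 10.96. Rarres2 (chromosome 6, 48569696 to 48572789, minus strand, mm10), the gene of chemerin, a chemoattractant, lay furthest below 0 among genes whose mean FPKM reached 5, with 12.02 FPKM against 1.42, 8.44-fold lower in the cKO. In the authors' deposited table its q is 0.0327, and 3 genes there have a q under 0.05. The others are Hnrnpa3, an RNA-binding protein gene (6.26 and 0.833 FPKM, q 0.0475), and the pseudogene Hspd1-ps3 (0.933 and 7.63, q 0.0327). That table calls 45 genes different, 20 higher and 25 lower, all with a p below 0.05. Of these, 35 were tested here, 17 of them past 1.5-fold upward and 18 downward. The authors' comparison has 1 input library per genotype, so its p and q do not measure spread between cultures.

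Complement genes were lower around C1q. C1q is the recognition molecule of the classical complement pathway, made mainly by macrophages. C1qa (chromosome 4, 136895917 to 136898803, minus strand, mm10) was at 73.1 and 28.4 FPKM, 2.58-fold lower, and its neighbour C1qc at 20.8 and 11.2. Of 11 tested complement genes 9 lay below 0, against 54.2% of all tested genes, with a median of -0.32. The alternative pathway genes Cfb (541 and 403) and Cfp (90.1 and 62.1) were lower by less than 1.5-fold, and C3 was at 149 and 144. Serping1, the inhibitor of C1, was the 1 complement gene past 1.5-fold in the other direction, at 6.52 and 12.8 FPKM.

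Several other genes typical of tissue-resident or alternatively activated macrophages were lower as well. Except for Fcna, Mertk and Mgl2, which the rule for named genes takes, they were chosen after their values were seen. Fcna, a ficolin that binds microbial sugars, was at 37.6 and 14.5 FPKM. Mertk, a receptor for apoptotic cells, was at 11.6 and 6.29, and Selenop, a selenium carrier, at 43.7 and 24.8. Folr2, a folate receptor, was at 20.9 and 11.98 FPKM, and the lectin gene Mgl2 at 3.58 and 0.338. Vsig4, a complement receptor of resident macrophages, was at 2.33 and 0.262. Of these genes only Mgl2 belongs to the list of suppressive and alternatively activated genes. In that list 9 of 18 lay above 0 and 9 below, with a median of -0.01. No list of resident macrophage genes was set up, so no share can be given for the others.

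Spp1 had the highest difference in the list of suppressive and alternatively activated genes. It was at 244 FPKM in the WT and 702 in the cKO, 2.88-fold higher. It encodes osteopontin, a secreted adhesion protein of tumour-associated macrophages. Gpnmb, a glycoprotein of lipid-laden macrophages, was at 1009.9 and 1695 FPKM, and Arg1, the arginase that competes with Nos2 for arginine, at 699 and 907. Tgm2, a transglutaminase, was at 174 and 102, and Clec7a, the receptor for fungal beta-glucans, at 148 and 87.6. Trem2, a lipid receptor, was at 25.1 and 27.2. The scavenger receptors Msr1 (29.9 and 28.8) and Cd36 (142 and 163) were close.

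Genes of amino acid supply and the integrated stress response lay mostly below 0, by less than 1.5-fold for all but 2. In this response, ATF4 turns on transporters, synthetic enzymes and tRNA synthetases when amino acids run short. Of 31 tested genes 26 lay below 0 and 5 above, the median was -0.36, and 2 were at least 1.5-fold lower (1.66% of all tested genes). Both encode cationic amino acid transporters that import arginine: Slc7a2 was at 310 and 192 FPKM, and Slc7a1 at 4.93 and 2.94. Of the amino acid transporters 5 of 5 lay below 0, with a median of -0.49. Slc7a11, the cystine importer, was at 8.15 and 5.50 FPKM, and Slc3a2, the heavy chain of several such transporters, at 73.0 and 56.3.

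All 7 tested tRNA synthetases of the list lay below 0, from -0.06 to -0.50, with a median of -0.38. Lars, which charges the leucine tRNA, was at 9.89 and 6.70 FPKM, and Nars, for asparagine, at 37.0 and 26.8. Sars, for serine, was nearly level at 40.0 and 38.3. The serine and one-carbon enzymes Shmt2 (9.94 and 7.09), Mthfd2 (32.3 and 25.0), Phgdh (17.3 and 13.5) and Psat1 (18.4 and 15.7) had a median of -0.35. Atf4 itself was at 91.6 and 76.4 FPKM, and its targets Sesn2 (15.9 and 11.1) and Trib3 (15.3 and 11.6) were lower. Ddit4, an inhibitor of mTOR signalling (142 and 175), and Cebpb (279 and 298) were higher by less than 1.5-fold. The sensor kinase genes Eif2ak3, of the endoplasmic reticulum (2.94 and 3.84), and Eif2ak4, of amino acid shortage (4.39 and 4.45), did not share the group's direction.

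The factor NRF2 is known to turn on antioxidant genes. A subset of 5 tested ones, Gclm, Gsr, Slc7a11, Srxn1 and Txnrd1, had 5 of 5 below 0 (54.2% of all tested genes). Their median was -0.44. The subset does not hold every NRF2 target, so its count describes these 5 genes and not the targets as a set. The subset is part of a wider list of haem, iron and antioxidant genes, whose members lay on both sides of 0. In that list Sod1 (12.5 and 15.5 FPKM) and Prdx6 (51.0 and 57.8) were higher, and Prdx5 (328 and 235) and Sod2 (53.2 and 38.7) lower. Gclm, a subunit of the rate-limiting enzyme of glutathione synthesis, was at 7.69 and 3.90 FPKM and was the 1 past 1.5-fold, while Txnrd1 was at 16.7 and 12.02. The metal-binding metallothionein genes Mt1 (458 and 798 FPKM) and Mt2 (1652 and 2298) and the ferritin chains Fth1 (7839 and 9531) and Ftl1 (6994 and 8803) were higher. Mt1 was past 1.5-fold and the other 3 were not.

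Chaperones and folding enzymes of the endoplasmic reticulum lay mostly above 0, and 5 were past 1.5-fold. This organelle folds secreted and membrane proteins, and its chaperones and disulfide isomerases are induced when folding capacity is short. Of 32 tested genes 29 lay above 0 and 3 below, the median was 0.19, and 5 were at least 1.5-fold higher (1.46% of all tested genes). P4hb, a disulfide isomerase that is also the beta subunit of collagen prolyl hydroxylase, stood out at 249 and 638 FPKM, 2.56-fold higher (chromosome 11, 120560298 to 120573253, minus strand, mm10). Hspa5, the main chaperone of the organelle, was at 84.0 and 174.6 FPKM, Pdia4 at 57.5 and 93.3, Pdia6 at 30.9 and 51.1, and Sdf2l1, a co-chaperone, at 19.9 and 31.8. P4hb and Hspa5 made up most of the gap in the summed level of the list, which was 1199 FPKM in the WT and 1899 in the cKO.

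Of 8 disulfide isomerases and related genes 8 lay above 0, from 0.07 to 1.35, with a median of 0.34. Hsp90b1, a chaperone of receptors and integrins, was at 108 and 157 FPKM, and Calr, a lectin chaperone, at 122 and 153. The signalling genes of the unfolded protein response did not share this size of difference. Xbp1 was at 29.3 and 33.2 FPKM, Atf6 at 9.95 and 9.79, and Ern1, the IRE1 sensor gene, at 14.3 and 13.8. Herpud1, of the degradation branch, was at 12.6 and 11.1 FPKM.

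Promoters of this group were searched for the endoplasmic reticulum stress element, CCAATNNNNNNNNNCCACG, the site through which ATF6 is known to act, on both strands. Of the 32 tested genes 27 had a promoter, and 6 of the 27 held it (22.2%), against 0.137% of the 27025 genes in the table. The 6 were Hspa5, Pdia6, Hsp90b1, Calr, Creld2 and Canx. P4hb is not among them. The first 5 are shown because the motif is long and rare, with capitals on it.
Hspa5, chr2:34772017-34772051, plus strand: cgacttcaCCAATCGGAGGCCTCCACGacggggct
Pdia6, chr12:17266483-17266517, plus strand: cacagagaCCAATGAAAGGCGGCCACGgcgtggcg
Hsp90b1, chr10:86705630-86705664, minus strand: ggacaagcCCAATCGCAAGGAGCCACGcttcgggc
Calr, chr8:84847067-84847101, minus strand: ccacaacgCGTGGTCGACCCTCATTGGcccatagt
Creld2, chr15:88819512-88819546, plus strand: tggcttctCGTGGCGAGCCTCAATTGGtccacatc
In Hspa5, Pdia6 and the Hsp90b1 site printed here the motif is on the strand of the gene, and in Calr and Creld2 on the opposite strand. The input differences of these 5 genes were 1.05, 0.71, 0.54, 0.32 and 0.30, and that of Canx was 0.12. The list holds genes known for this element, so the share says nothing of these data.

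**Figure D3:**
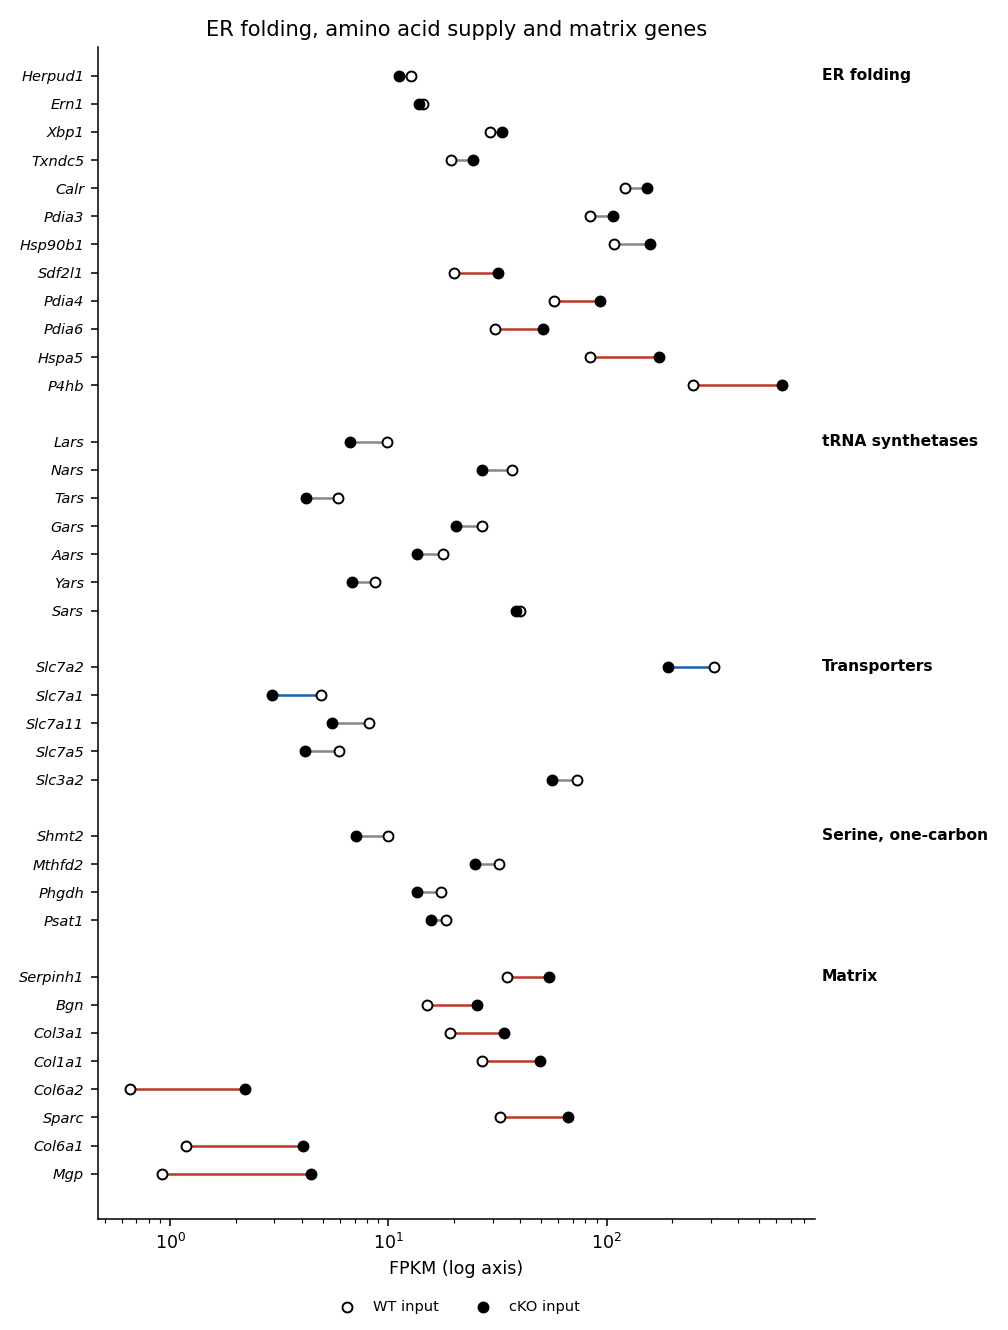
FPKM (x axis, log scale) of endoplasmic reticulum folding genes, tRNA synthetases, amino acid transporters, serine and one-carbon enzymes and matrix genes in the WT input (open circles) and the cKO input (filled circles). Red lines mark at least 1.5-fold higher in the cKO, blue lines at least 1.5-fold lower and grey lines smaller differences, and the synthetases, transporters and enzymes are all to the left of their WT value.

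Extracellular matrix genes lay mostly above 0, and 8 were past 1.5-fold. Collagens and the proteins that fold and bind them are mostly made by fibroblasts, and macrophages are known to make some of them. Of 23 tested genes 21 lay above 0, 8 were at least 1.5-fold higher (1.46% of all tested genes) and 0 lower, with a median of 0.52. Mgp, a matrix protein that binds calcium, was at 0.920 FPKM in the WT and 4.41 in the cKO, and Sparc, a collagen-binding glycoprotein, at 32.4 and 66.7. The neighbouring genes Col6a1 and Col6a2, of collagen VI, were at 1.18 and 0.657 FPKM in the WT and at 4.05 and 2.20 in the cKO. The fibrillar collagen genes Col1a1 (26.8 and 49.4) and Col3a1 (19.1 and 34.0) were also past 1.5-fold, and so were the proteoglycan gene Bgn (15.0 and 25.4) and the collagen chaperone gene Serpinh1 (34.9 and 54.6). Fn1, the fibronectin gene, which macrophages express highly, was at 209 and 300 FPKM.

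The fibroblast markers fixed for checking cell types moved with this list. Of 14 markers 10 had a value and 8 were tested. Of these 8, 7 lay above 0 (45.8% of all tested genes) and 4 were at least 1.5-fold higher (1.46%). The summed level of the 10 was 130.4 FPKM in the WT and 230.5 in the cKO, and none of the 10 was listed at 0. All 10 also stand in the matrix list, so the marker count is no separate measurement. The receptor genes Pdgfra (3.10 and 5.08 FPKM) and Pdgfrb (1.81 and 1.68) and the surface gene Thy1 (0.688 and 0.654) went different ways. Krt19, the single epithelial marker above an FPKM of 1, was at 7.05 and 10.8. The part of fibroblasts or carcinoma cells in these levels was not tested.

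Ribosomal protein genes lay slightly above 0 together. They encode the protein part of the cytosolic ribosome and are held at matched levels in most cells. Of 70 tested genes 68 lay above 0, with quartiles of 0.26 and 0.37 and a median of 0.32, and 0 reached 1.5-fold. Rps15 was at 540.3 and 709.5 FPKM, and Rpl19 at 572 and 677. The 2 below 0 were Rps27a, which encodes ubiquitin fused to a ribosomal protein (174 and 151), and Rpl7l1, a relative of a ribosomal protein gene (15.5 and 11.99). The summed level was 13122 FPKM in the WT and 16317 in the cKO. The 38 mitochondrial ribosomal protein genes had a median of 0.14, with 24 above 0, and the 65 genes of oxidative phosphorylation a median of -0.01.

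Ribosomal protein genes are short and highly expressed. Transcript length moved with the difference. Among protein-coding genes, 54.97% of those with transcripts of 218 to 1586 bases lay above 0, and 39.8% of those with 4994 to 23251 bases, at the short and the long end of groups of equal size. Without the ribosomal protein list the share among the short transcripts was 52.4%. Genes whose mean FPKM reached 100 had a median of 0.07, and of -0.01 without that list, which is near the medians at lower levels. The part of transcript length or RNA quality in the upward shift was not tested.

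Pseudogenes were past the threshold far more often than genes. Processed pseudogenes are copies of a messenger RNA in the genome, so their reads can come from the gene they copy. Of 129 tested pseudogenes 15.5% were past 1.5-fold upward and 8.53% downward, against 1.08% and 1.40% of 5846 protein-coding genes. Of the 25 genes at least 2-fold higher, 12 were annotated as pseudogenes. Rpl9-ps6, annotated as protein coding, was at 36.1 FPKM in the WT and 108.6 in the cKO, while Rpl9 was at 76.0 and 97.9. Rpl19-ps1 was at 5.36 and 13.5 FPKM, while Rpl19 differed by 0.24. These values depend on how reads shared with the parent gene were assigned, and they are uncertain.

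**Figure D4:**
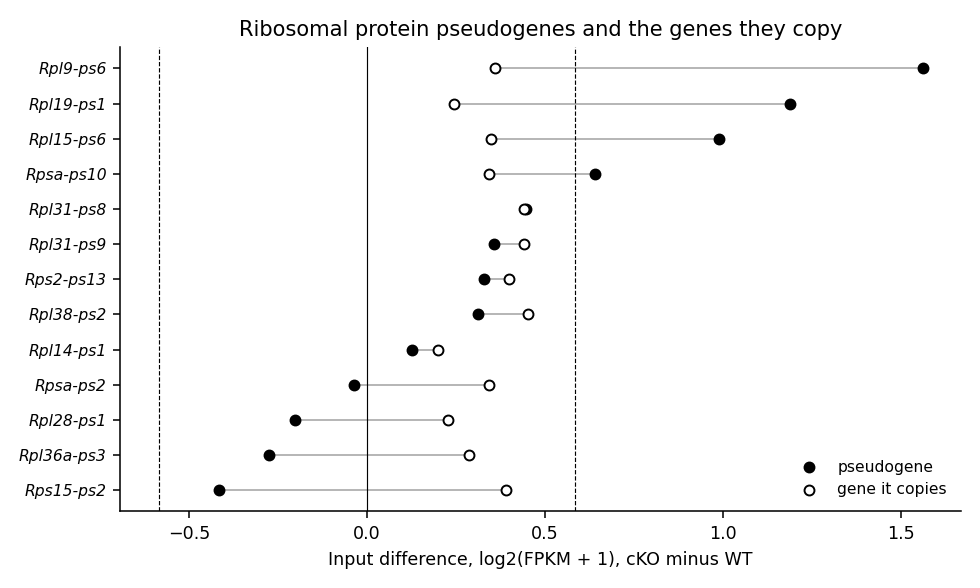
Input difference (x axis, log2(FPKM + 1), cKO minus WT) of 13 ribosomal protein pseudogenes (filled circles) and of the gene each copies (open circles), with dashed lines at 1.5-fold. The parent genes lie between 0.20 and 0.45, while the pseudogenes range from -0.42 to 1.56.

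Genes past 1.5-fold that are neighbours went the same way mainly where they are related copies. Within 100 kb of each other, from start to start, stood 22 genes in 10 groups, and 7 of the groups had 1 direction. They are the guanylate-binding protein clusters on chromosomes 3 and 5, the pairs Cxcl1 and Cxcl2, C1qa and C1qc, Serpina3f and Serpina3g, Hspa1a and Hspa1b, and the pair of Irgm2 with Gm12250. Most of these are related copies, in which reads can be shared, so their common direction says nothing of neighbours in general. The 3 groups with both directions included Neat1 and Malat1, neighbouring nuclear noncoding RNAs on chromosome 19. Neat1, the scaffold of paraspeckles, was at 163 and 64.1 FPKM, and Malat1, a nuclear speckle RNA, at 171 and 262.1. In another, Rarres2 stood beside Repin1, a zinc-finger gene at 3.02 and 7.17 FPKM. The last held Rcn3 (7.55 and 11.9) and Pih1d1 (5.40 and 3.20).

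Among the other genes furthest from 0, several have roles in macrophages. H2-M2, a nonclassical class I gene, was at 173 and 83.3 FPKM. Slamf8, a surface receptor of myeloid cells, was at 11.5 and 4.04, and Acsl1, which activates fatty acids with coenzyme A, at 23.3 and 12.6. Higher in the cKO were Clu, the gene of the extracellular chaperone clusterin (8.11 and 17.4 FPKM), and Ifi27l2a, an interferon-induced gene (30.4 and 55.8), unlike most of the antiviral interferon list. The linker histone gene H1f0 was at 66.7 and 117. H1f10, another linker histone gene, was listed at 0 in the WT and at 3.52 in the cKO.

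The remaining lists had medians near the centre of all genes. Of 44 lysosome genes 0 were past 1.5-fold, with a median of -0.03, and the most abundant of them, Psap (4770 and 5015 FPKM) and Ctss (4589 and 4841), differed by less than 0.1. Of 34 glycolysis and hypoxia genes, Ndrg1, a stress-induced gene (48.9 and 78.0), was the 1 past 1.5-fold upward, and Epas1, which encodes HIF-2 alpha (7.88 and 4.45), the 1 downward, with a median of 0.07. Chromatin-modifying enzymes (64 tested, median -0.03), actin and adhesion genes (34, -0.08) and autophagy genes (23, 0.06) had 0 past 1.5-fold. The same held for the MAPK pathway (23, -0.10), AP-1 and other immediate-early factors (23, -0.06), mRNA decay (28, -0.05), cell cycle (16, 0.02), checkpoint ligands and co-stimulators (11, -0.11), Fc receptors (10, -0.04) and cholesterol synthesis (10, 0.14). The 8 tested m6A writer genes had a median of 0.05: Wtap, which anchors the complex in nuclear speckles, was at 9.20 and 10.6 FPKM, and Mettl14, the direct partner of METTL3, at 1.55 and 1.304. Among 12 eraser and reader genes, the demethylase gene Alkbh5 was at 31.9 and 39.7 FPKM and the reader gene Ythdf2 at 5.90 and 5.89. Heat shock genes had a median of -0.05, but 3 were at least 1.5-fold higher, a larger share than the 1.46% of all tested genes. These 3 were low in both libraries, namely Hspa1a (1.59 and 4.27), Hspa1b (2.62 and 5.24), a near-identical copy, and Hspb1 (3.24 and 6.50).

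**Figure D5:**
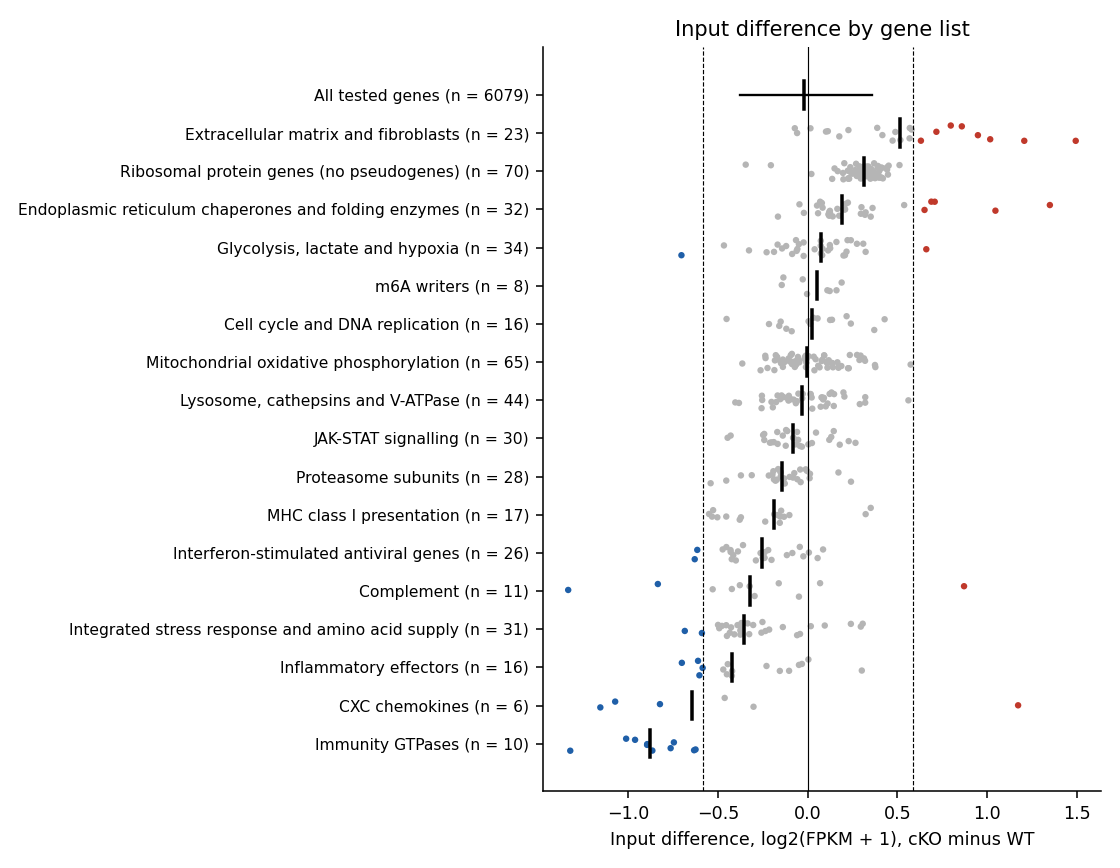
Input difference (x axis, log2(FPKM + 1), cKO minus WT) of the tested members of gene groups, with the number of genes in brackets. Points are genes, coloured where past 1.5-fold (dashed lines), thick bars are medians, and the line in the row of all tested genes runs from -0.38 to 0.36, their 5th to 95th percentile.

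The input difference was set beside the direction of the m6A peaks that brought each gene into the table. Of all tested genes 54.2% lay below 0. Genes with only higher peaks in the cKO (2538 genes) had a median input difference of -0.05, and 59.0% of them lay below 0. For genes with only lower peaks (2561 genes) the median was 0.01, and 48.7% lay below 0. The 980 genes with peaks in both directions were between them, with 56.2% below 0. The input is the denominator of the authors' peak value, so the values share a library and a lower input by itself raises that value. Counting peaks only where the adjusted p of the authors' deposited table was under 0.05, the shares below 0 were 58.5%, 49.5% and 57.2%. Past 1.5-fold downward in the input were 2.09% of the genes with only higher peaks and 1.52% of those with only lower peaks.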

How the data were processed

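Input RNA of 1 WT and 1 cKO culture was used. FPKM values per gene were made and deposited by the authors. The submitters' processing notes name fastp, HISAT2, StringTie, HOMER, ChIPseeker, edgeR and the build mm10, with no roles or versions, and how multi-mapping or antisense reads were counted is not given in the sources used here. FPKM is scaled within each library, so a difference is relative to the other genes of that library. Log2 ratios, p-values and q-values of the authors' own comparison were taken from their deposited table and only copied.

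For each gene, log2(FPKM + 1) was subtracted, cKO minus WT, and genes whose mean FPKM reached 1 were set against 1.5-fold and 2-fold, which are size thresholds and not tests. The calculation was checked by putting known 2-fold changes on the WT values without noise, which tests the arithmetic only. Named genes are the 20 highest and the 20 lowest whose mean FPKM reached 5, the 10 of highest mean, list members past 1.5-fold or, failing those, of largest difference, genes whose q is under 0.05 in the deposited table, and genes listed at 0 in 1 library. The 44 gene lists, 8 marker lists and the rule were chosen with earlier results of these data known. RefSeq promoters (GRCm38.p6) matched 4792 of the 6079 tested genes. Python 3.11.15 with pandas 2.3.3 and numpy 2.4.6 was used. Alternatives were another pseudocount, other filters on low values, 3 other scalings and protein-coding genes only.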

Additional observations from a re-analysis of the deposited data

How the results depend on the processing

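With 1 library per genotype and unknown depth, neither the spread between cultures nor counting error could be given. No paired analysis was possible because each genotype has 1 input library. No gene past 1.5-fold changed sign under the alternatives run. List medians close to 0 have no firm sign, since scaling to an equal median shifts the differences. With a pseudocount of 0.1 in place of 1, 141 genes were at least 1.5-fold higher and 156 lower, and 39 and 40 were past 2-fold, since low genes are then damped less. With a mean FPKM of at least 5, which leaves 3537 genes, 51 were at least 1.5-fold higher and 60 lower, and 14 were at least 2-fold higher. Among protein-coding genes only, an alternative chosen after pseudogenes were seen among the called genes, 13 were at least 2-fold higher. Scaling to an equal median gave 100 higher and 91 lower, and quantile normalization 95 of each. Of the list medians recomputed, 312 stayed within the tolerance of 0.1 and 5 moved further; for example, the median difference of Immunity GTPases was -1.08 with a pseudocount of 0.1, and the median difference of CXC chemokines was -0.46 with no filter. Of the values of single named genes, 599 stayed within that tolerance and 33 moved further.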

Other observations

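The following genes were chosen after their values were seen, and no test was possible. Mat2a, which makes the methyl donor S-adenosylmethionine, was at 9.89 FPKM in the WT input and 6.13 in the cKO input. Igf1, a growth factor of resident macrophages, was at 4.78 and 2.51, and Tmem119, a gene best known from microglia, at 9.67 and 6.09. The immunoglobulin constant genes Ighm (9.58 and 4.91) and Igkc (8.32 and 4.75) were lower as well. Alox5ap, which serves leukotriene synthesis, was at 32.2 and 51.5 FPKM, and Mmp8, a collagenase of myeloid cells, at 22.3 and 34.8.

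Pathway names in the authors' annotation gave counts of the same kind. The pathways named are a few of many, and of all tested genes 1.66% were at least 1.5-fold lower and 1.46% higher. NOD-like receptor signalling had 9 of 87 tested genes at least 1.5-fold lower and 0 higher, TNF signalling 6 of 64 and 0, and IL-17 signalling 5 of 39 and 0. Related pathways had fewer: Toll-like receptor signalling had 3 of 52 lower and 1 higher, NF-kappa B signalling 1 of 46 and 0, and Jak-STAT signalling 1 of 65 and 0. Protein processing in the endoplasmic reticulum had 6 of 96 higher and 0 lower. Ribosome biogenesis, the set of genes that build ribosomes, had 27 of 35 below 0 and a median of -0.17, while Ribosome, the set of genes that form them, had 89 of 99 above 0 and a median of 0.29. Aminoacyl-tRNA biosynthesis had 13 of 18 below 0. These pathways share genes with the lists of the report.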
